A study of Mus musculus with 18 samples.

Results

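Messenger RNA of 8 genes of sterol and fatty acid synthesis was followed in mouse lung. The genes were taken by symbol from a table of 13384 genes: Hmgcs1, Idi1 and Sqle of the sterol pathway, Acly, Fasn and Scd1 of fatty acid synthesis, and Insig1 and Srebf1, which control both. All 8 symbols were found, each in 1 row, and all 8 were among the 11765 genes tested. The study asked how mesenchymal stem cells act on lung RNA in a smoke-exposed mouse model of COPD (chronic obstructive pulmonary disease), in which airways narrow and alveoli are lost. Lung was sampled in 3 groups of 3 libraries. Control animals received phosphate-buffered saline. COPD model animals were exposed to cigarette smoke, were injected with cigarette smoke extract into the peritoneum, and received saline too. The BMSC-treated animals had the same smoke and extract exposure and then BMSCs in 100 µl of saline through the tail vein. Strain, age and sex were not given in the labels. Whether the 3 libraries of a group were from separate animals is not stated, and p-values here cover only the spread among these libraries, which may be technical.

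Cells make cholesterol from acetyl-CoA through the mevalonate pathway and make long-chain fatty acids from the same precursor. Both pathways are controlled by SREBP transcription factors, which are held in the endoplasmic reticulum by INSIG proteins when sterols are plentiful and are released to the nucleus when sterols fall. SREBP-2, the product of Srebf2, acts mainly on sterol genes, and SREBP-1c, a product of Srebf1, acts mainly on fatty acid genes. In lung, alveolar type 2 cells use this lipid synthesis to make surfactant, the phospholipid film that keeps alveoli open.

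Upstream sequence is shown first because the genes are known targets of the same factors. The letters are from RefSeq on GRCm38.p6, which had 8 promoter entries for 6 of the genes, 3 of them for Srebf1. The set of entries used here held none for Sqle or Scd1. In each sequence, the 250 bases before an annotated start are given 5′ to 3′ on the gene's strand, and capitals mark every match on either strand to 4 motifs. These were the sterol regulatory element TCACCCCAC bound by SREBPs, the CCAAT box CCAAT bound by NF-Y, the GC box GGGCGG bound by Sp1 family factors, and the E-box CACGTG. Hmgcs1 (chr13:119690101-119690350, plus strand) and Idi1 (chr13:8885356-8885605, plus strand) are printed for the sterol enzymes, Insig1 (chr5:28071162-28071411, plus strand) for the control genes and, of the 2 fatty acid enzymes with an entry, Acly (chr11:100528001-100528250, minus strand) for the fatty acid enzymes.
Hmgcs1: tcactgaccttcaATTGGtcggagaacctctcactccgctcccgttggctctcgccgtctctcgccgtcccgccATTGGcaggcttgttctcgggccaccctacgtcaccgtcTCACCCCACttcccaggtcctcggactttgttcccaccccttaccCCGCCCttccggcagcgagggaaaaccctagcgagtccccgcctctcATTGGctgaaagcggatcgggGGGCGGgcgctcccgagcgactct
Idi1: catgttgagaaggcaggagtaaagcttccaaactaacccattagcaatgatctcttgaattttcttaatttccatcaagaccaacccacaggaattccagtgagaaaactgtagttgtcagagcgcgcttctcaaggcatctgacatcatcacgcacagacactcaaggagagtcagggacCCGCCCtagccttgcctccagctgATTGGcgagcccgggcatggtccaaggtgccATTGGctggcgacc
Insig1: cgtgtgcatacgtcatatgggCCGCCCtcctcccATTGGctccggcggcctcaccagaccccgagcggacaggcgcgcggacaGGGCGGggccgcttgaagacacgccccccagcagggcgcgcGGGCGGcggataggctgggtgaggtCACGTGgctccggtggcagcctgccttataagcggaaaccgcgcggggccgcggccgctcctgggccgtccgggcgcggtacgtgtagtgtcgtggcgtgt
Acly: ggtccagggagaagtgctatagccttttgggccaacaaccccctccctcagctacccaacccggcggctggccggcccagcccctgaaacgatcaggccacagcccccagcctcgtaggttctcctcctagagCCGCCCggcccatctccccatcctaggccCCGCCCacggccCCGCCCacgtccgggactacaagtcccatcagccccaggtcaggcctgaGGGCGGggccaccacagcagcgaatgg

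The sterol regulatory element was found in 1 of the 8 entries, that of Hmgcs1, on the plus strand from 137 to 129 bases before the start. Over all 32851 promoter entries, 0.496% held it in the same window. CCAAT boxes were in 6 of the 8 member entries against 33.8% of all entries, with 3 matches upstream of Hmgcs1, 3 upstream of Fasn, 2 upstream of Idi1, 1 upstream of Insig1 and 1 in each of 2 Srebf1 entries, and none upstream of Acly. GC boxes were in 6 of the 8 member entries against 32.7% of all entries. There were 4 matches upstream of Acly, 3 upstream of Insig1, 2 upstream of Hmgcs1 and 1 upstream of Idi1. Srebf1 had 2 matches in each of 2 entries, and Fasn had none. Of the 8 entries 3 belonged to Srebf1, so these are shares of entries and not of genes. The E-box was found only upstream of Insig1 among the 8 entries, and 6.02% of all entries held it. No motif pair shared bases in the 4 sequences printed. A match describes letters in a window and shows no binding. Only exact letters in that window were searched, so the lack of a match does not show that an element is absent.

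Values are FPKM, a read count scaled to transcript length and library size, which allow levels of different genes to be compared per length. A few transcripts took most of each library: the 13 mitochondrial genes made up 23.9% to 92.2% of the summed FPKM and Scgb1a1, a club cell secretory gene, 1.02% to 39.2%. Both shares differed with group, since the COPD model libraries had the 3 lowest mitochondrial shares and the 3 highest Scgb1a1 shares. The FPKM were therefore also rescaled to an equal sum over all other genes, which is called rescaled FPKM here. Control library 1 and BMSC-treated library 1 stood apart from the other 7, with 1038 and 1193 genes listed at 0 against 107 to 201, and with mitochondrial shares of 89.3% and 92.2% against 23.9% to 70.8%. The depth of the libraries is unknown. Defining lung markers were present in every library, with all 12 alveolar type 2 markers above 0.

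The 8 genes ranged from percentile 14.0 of the genes tested, for Srebf1 in control 1, to percentile 97.1, for Scd1 in control 2. Scd1 was the most abundant of them in 7 of 9 libraries. Mean FPKM in control lung ran from 39.4 ± 24.8 (SD, n = 3) for Scd1 through 12.0 ± 7.07 for Hmgcs1, 10.3 ± 5.88 for Insig1, 6.78 ± 2.79 for Acly, 5.75 ± 4.86 for Sqle, 5.48 ± 4.20 for Idi1 and 3.49 ± 3.11 for Srebf1 to 2.92 ± 1.72 for Fasn. Neighbours in that order differed by less than the larger SD of the pair, except Scd1 and Hmgcs1. In COPD model lung the means were 36.0 ± 17.5 for Scd1, 31.1 ± 3.47 for Hmgcs1, 20.6 ± 3.57 for Insig1, 11.8 ± 1.14 for Sqle, 10.5 ± 2.06 for Idi1, 9.75 ± 4.23 for Acly, 6.98 ± 0.785 for Srebf1 and 4.78 ± 1.90 for Fasn. Hmgcs1 exceeded Scd1 in COPD model libraries 1 and 2 and in no other library. In BMSC-treated lung the order began and ended as in control, with Scd1 at 24.2 ± 13.0, Hmgcs1 at 10.1 ± 6.71 and Fasn at 2.39 ± 1.46. The plot of deposited FPKM shows these levels for each library.

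**Figure D1:**
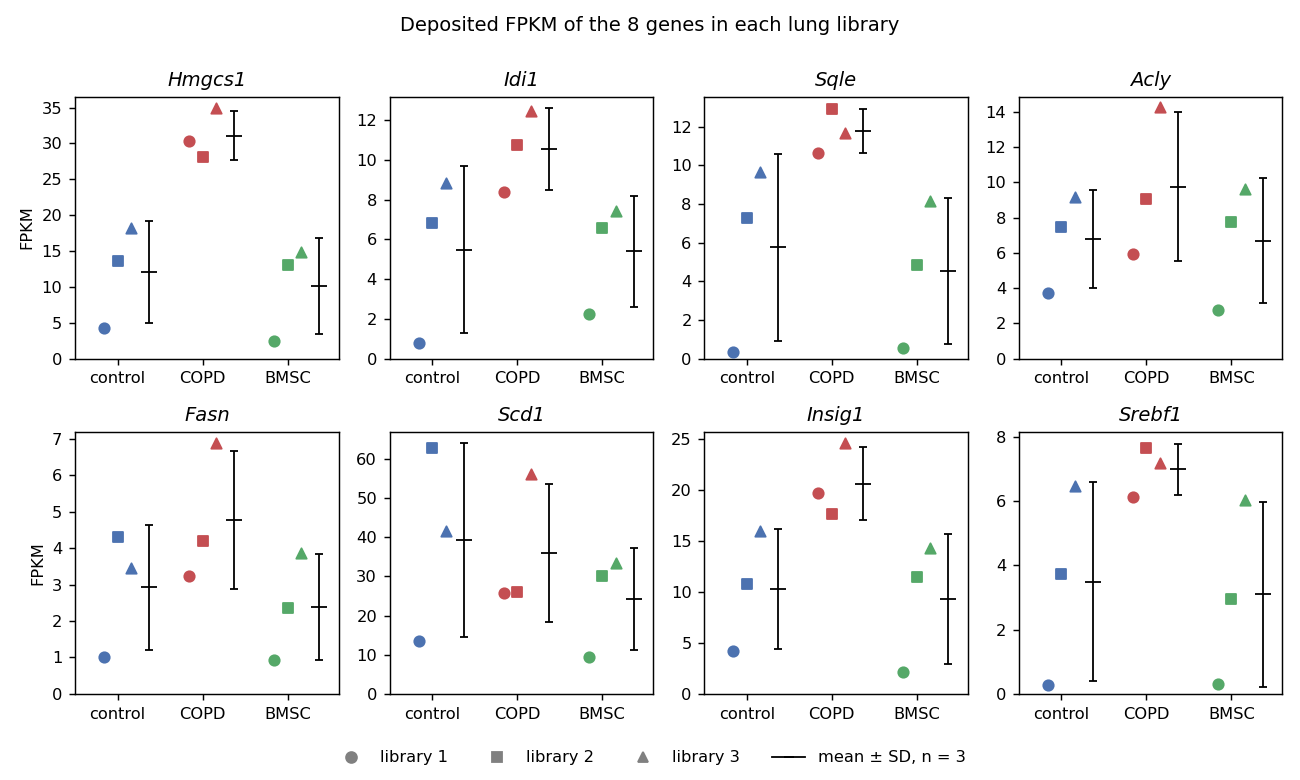
Deposited FPKM (y axis, from 0) of each gene in the 3 control, 3 COPD model and 3 BMSC-treated (BMSC) lung libraries. Marker shape gives the library number and black bars the mean ± SD (n = 3). All 3 COPD model values of Hmgcs1 (28.1 to 34.9) lie above all control values (4.30 to 18.2), while the groups of Scd1 overlap, and library 1 of the control and BMSC-treated groups is the lowest of its group for all 8 genes.

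In COPD model against control lung, the sterol enzymes, Srebf1 and Insig1 had the larger differences on deposited FPKM, the fatty acid enzymes the smaller ones, and none of the 8 genes passed the test. limma on log2(FPKM + 1), a scale that understates the change of low genes, called 9 of 11765 genes at a Benjamini-Hochberg adjusted p under 0.05, or 0.0765%, and 0 of the 8. At an unadjusted p under 0.05 the count was also 0 of 8 on deposited FPKM, against 6.36% of all genes higher and 0.229% lower, and on rescaled FPKM it was 1 of 8, Hmgcs1, against 2.76% higher. The median gene was 0.66 log2 higher in the COPD model on deposited FPKM and 0.14 higher on rescaled FPKM. The median of the 8 genes was 1.11 on deposited and 0.50 on rescaled FPKM. Relative to the median gene, on deposited and rescaled FPKM, Idi1 was at 0.49 and 0.46, Sqle at 0.73 and 0.79, Insig1 at 0.42 and 0.24, Srebf1 at 0.50 and 0.59, and Acly at -0.19 and -0.34. COPD model libraries lay wholly above control libraries for 3 of the 8 genes, Hmgcs1, Sqle and Insig1, on both scales. The same held for 23.7% of all genes on deposited FPKM and 7.09% on rescaled FPKM. Without control 1 and BMSC-treated 1 the count was 3 on both scales, against 23.9% of all genes on deposited and 9.88% on rescaled FPKM, and the median of the 8 genes was 0.40 against 0.30 for all genes on deposited FPKM and 0.12 against 0.049 on rescaled FPKM.

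Hmgcs1 encodes the cytosolic HMG-CoA synthase that feeds the mevalonate pathway. Its FPKM was 4.30, 13.7 and 18.2 in the control libraries, 30.3, 28.1 and 34.9 in the COPD model libraries, and 2.42, 13.0 and 14.8 in the BMSC-treated libraries. All COPD model libraries were above all others, and the control and BMSC-treated ranges overlapped. On rescaled FPKM the values were 10.2, 14.4 and 15.2 in control, 23.1, 21.9 and 24.9 in COPD model and 8.15, 14.9 and 11.7 in BMSC-treated lung, with the same separation. The COPD model against control difference was 1.49 log2 (SE 0.75, limma adjusted p = 0.514) on deposited and 0.79 (SE 0.25, unadjusted p = 0.0121, adjusted p = 0.754) on rescaled FPKM, or 0.83 and 0.64 above the median gene. Without control library 1 and BMSC-treated library 1, chosen for removal with their profile known, it was 0.93 (SE 0.33, adjusted p = 0.629) on deposited FPKM. Among the genes of its own library, Hmgcs1 stood at percentile 82.2 to 85.9 in control, 89.9 to 91.4 in COPD model and 79.1 to 85.7 in BMSC-treated lung. Rescaling a library does not move such a rank, but changes in the other genes can. The share of all genes with ranks separate in this way was not computed, so these ranks are a description.

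Idi1 encodes the isomerase that makes dimethylallyl diphosphate for isoprenoid chains. It was at 0.769, 6.83 and 8.83 FPKM in control, 8.37, 10.7 and 12.5 in COPD model and 2.22, 6.54 and 7.42 in BMSC-treated lung. The lowest COPD model library was below the highest control library, so these groups overlapped, while all BMSC-treated values were below all COPD model values. On rescaled FPKM the COPD model range, 6.39 to 8.91, overlapped both the control range of 1.82 to 7.37 and the BMSC-treated range of 5.87 to 7.50. The COPD model difference from control was 1.15 log2 (95% interval -0.22 to 2.52) on deposited FPKM and 0.61 (-0.28 to 1.49) on rescaled FPKM. It was 0.38 on deposited FPKM without the libraries numbered 1 of the control and BMSC-treated groups.

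Sqle encodes squalene epoxidase, which starts the conversion of squalene to sterols. Its control values were 0.313, 7.28 and 9.66 FPKM, its COPD model values 10.7, 12.9 and 11.7, and its BMSC-treated values 0.569, 4.86 and 8.15. Control 1 and BMSC-treated 1 were far below the other libraries. COPD model values stayed above both other groups on rescaled FPKM, but by little over control: 8.14, 10.1 and 8.35 against 0.743, 7.67 and 8.06. The difference from control was 1.38 log2 (SE 0.70, limma adjusted p = 0.514). It was 0.44 (SE 0.34) without control 1 and BMSC-treated 1, and 0.15 (SE 0.19) when the values were also rescaled.

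Acly encodes ATP citrate lyase, the source of cytosolic acetyl-CoA for both pathways. It was at 3.71, 7.48 and 9.15 FPKM in control, 5.93, 9.03 and 14.3 in COPD model and 2.73, 7.73 and 9.63 in BMSC-treated lung, and all groups overlapped. The COPD model difference from control was 0.46 log2 (95% interval -0.92 to 1.84) on deposited and -0.20 (-0.80 to 0.40) on rescaled FPKM, so its direction turned with the scaling. Fasn, the fatty acid synthase, was at 1.003, 4.31 and 3.46 in control, 3.24, 4.20 and 6.89 in COPD model and 0.945, 2.36 and 3.86 FPKM in BMSC-treated lung, again with overlap. Its COPD model difference was 0.62 (-0.58 to 1.83) on deposited and 0.089 (-0.52 to 0.70) on rescaled FPKM, close to the median gene on both scales. It turned to -0.011 when libraries were rescaled by the median ratio.

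Scd1 encodes stearoyl-CoA desaturase 1, which puts the first double bond into saturated acyl chains. Its values were 13.5, 62.9 and 41.7 FPKM in control, 25.7, 26.1 and 56.3 in COPD model and 9.32, 30.0 and 33.3 in BMSC-treated lung. On rescaled FPKM they were 32.0, 66.2 and 34.8 in control, 19.6, 20.3 and 40.2 in COPD model and 31.4, 34.4 and 26.3 in BMSC-treated lung. COPD model libraries 1 and 2 were then the lowest of all 9, and library 3 was inside the control range. The COPD model difference from control was 0.02 log2 (95% interval -1.54 to 1.58) on deposited FPKM and -0.71 (-1.50 to 0.08, limma adjusted p = 0.754) on rescaled FPKM. Scd1 was thus 0.63 and 0.85 below the median gene. Scd2 is a close paralog, and how reads shared by both were assigned is not given in the sources used here.

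Insig1 encodes the endoplasmic reticulum protein that retains SREBPs, and is itself an SREBP target. Its FPKM was 4.22, 10.8 and 15.9 in control, 19.7, 17.6 and 24.5 in COPD model and 2.18, 11.5 and 14.3 in BMSC-treated lung, and COPD model values were above all others. On rescaled FPKM the gap narrowed, with 10.0, 11.4 and 13.3 in control, 15.0, 13.7 and 17.5 in COPD model and 7.33, 13.1 and 11.3 in BMSC-treated lung. The difference from control was 1.08 log2 (SE 0.74, limma adjusted p = 0.514) on deposited and 0.39 (SE 0.25, adjusted p = 0.754) on rescaled FPKM, and 0.60 on deposited FPKM without control 1 and BMSC-treated 1. Srebf1 was at 0.274, 3.73 and 6.47 FPKM in control, 6.12, 7.65 and 7.19 in COPD model and 0.297, 2.96 and 6.03 in BMSC-treated lung. Its COPD model and control ranges overlapped. The difference was 1.16 (95% interval -0.13 to 2.45) on deposited FPKM, 0.74 on rescaled FPKM, and 0.42 without control 1 and BMSC-treated 1. The table gives 1 value for the gene, so the isoforms SREBP-1a and SREBP-1c were not separated.

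**Figure D2:**
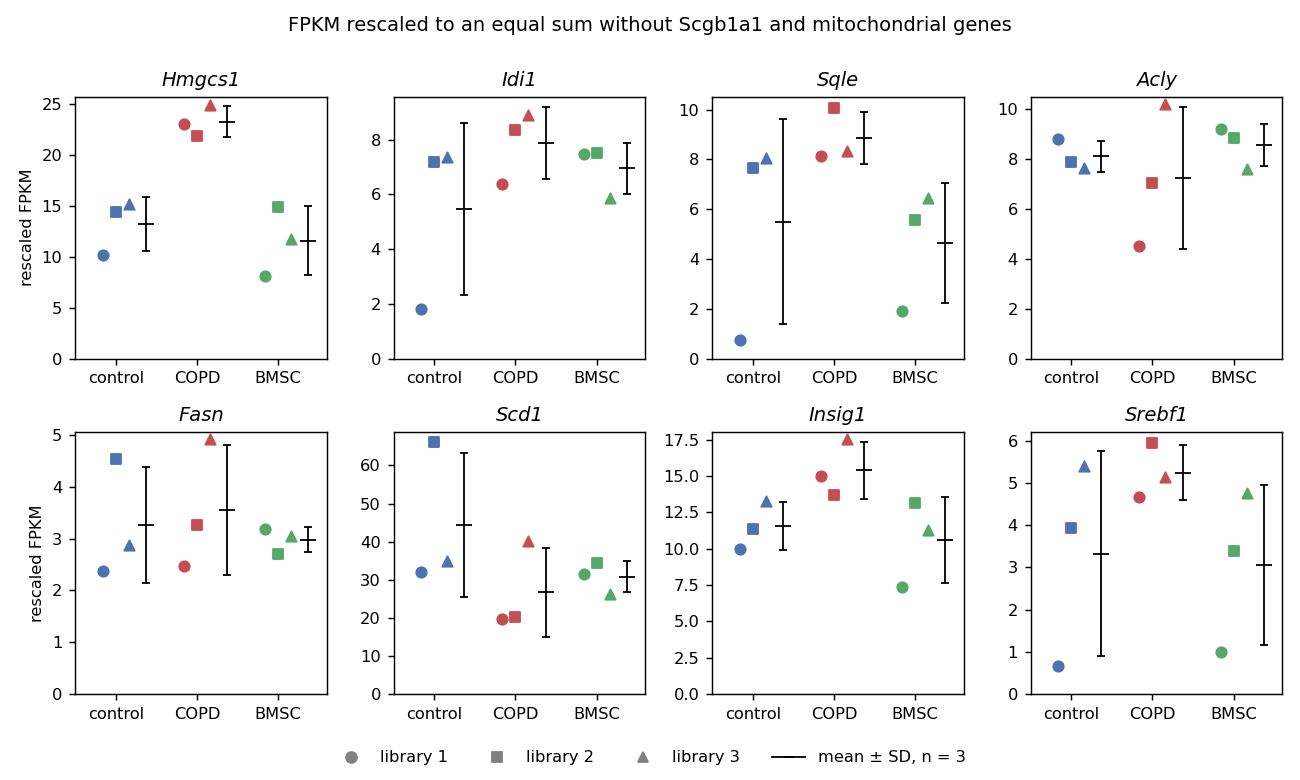
FPKM of each gene after rescaling every library to an equal sum without Scgb1a1 and the 13 mitochondrial genes (y axis, from 0), by group, with library numbers as marker shapes and mean ± SD (n = 3) in black. Hmgcs1 keeps a gap between COPD model (21.9 to 24.9) and control (10.2 to 15.2) libraries, and COPD model libraries 1 and 2 are the lowest for Scd1 (19.6 and 20.3).

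In BMSC-treated against COPD model lung, Hmgcs1 and Sqle had the largest differences, both lower after BMSCs, and again none of the 8 genes passed. limma called 15 of the genes tested, or 0.127%, and 0 of the 8. The median gene was 0.75 log2 lower in BMSC-treated lung on deposited FPKM and 0.16 lower on rescaled FPKM. The median of the 8 genes was -1.11 and -0.35. Hmgcs1 differed by -1.81 log2 on deposited FPKM (SE 0.75, unadjusted p = 0.0183, adjusted p = 0.375), and -0.98 (SE 0.25, unadjusted p = 0.00348, adjusted p = 0.585) on rescaled FPKM. Sqle differed by -1.54 (SE 0.70, unadjusted p = 0.031, adjusted p = 0.375) and by -0.91 (SE 0.61, adjusted p = 0.633) on rescaled FPKM. BMSC-treated libraries lay wholly below COPD model libraries for 5 of the 8 genes on deposited FPKM, Hmgcs1, Idi1, Sqle, Insig1 and Srebf1, where 31.0% of all genes did. On rescaled FPKM these were 3, Hmgcs1, Sqle and Insig1, where 14.2% of all genes did. The counts were 5 and 3 without control 1 and BMSC-treated 1, against 31.1% and 17.7% of all genes. There Hmgcs1 differed by -1.10 (SE 0.33, adjusted p = 0.225) and Sqle by -0.80 (SE 0.34, adjusted p = 0.37) on deposited FPKM, with -0.31 for the median gene. At an unadjusted p under 0.05, Hmgcs1 and Sqle were lower on deposited FPKM, 2 of 8 against 10.8% of all genes, and Hmgcs1 was on rescaled FPKM, 1 of 8 against 4.49%. COPD model libraries lay above both other groups for Hmgcs1, Sqle and Insig1, 3 of 8 on both scales, as did 14.0% of all genes on deposited and 3.43% on rescaled FPKM.

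Differences of the other genes in that comparison were smaller on rescaled FPKM. Insig1 differed by -0.53 log2 (95% interval -1.08 to 0.02), Srebf1 by -0.75 (-1.93 to 0.43), Idi1 by -0.16 (-1.04 to 0.73) and Fasn by -0.16 (-0.77 to 0.45). Acly and Scd1 were negative on deposited FPKM, at -0.54 and -0.64, and positive on rescaled FPKM, at 0.27 (-0.33 to 0.86) and 0.26 (-0.52 to 1.05). This comparison shares the COPD model libraries with COPD model against control, so the 2 sets of values are not independent of each other.

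BMSC-treated against control lung had the smallest median difference over all genes, at -0.0995 log2 on deposited and -0.0091 on rescaled FPKM. None of the genes tested was called by limma (0%). Without control 1 and BMSC-treated 1 some were called, as given in the closing section. At an unadjusted p under 0.05 there were 0 of the 8 genes, against 0.280% of all genes higher and 0.127% lower. For 0 of the 8 genes were the groups separate on either scale, where 0.178% of all genes were separate and higher and 0.382% lower on deposited FPKM, and 2.84% and 2.69% on rescaled FPKM. The differences ran from -0.62 log2 for Scd1 (95% interval -2.17 to 0.94) to 0.20 for Idi1 (-1.18 to 1.57) on deposited FPKM, and from -0.45 for Scd1 (-1.23 to 0.34) to 0.45 for Idi1 (-0.43 to 1.34) on rescaled FPKM. Hmgcs1 differed by -0.32 (-1.82 to 1.17) and -0.20 (-0.77 to 0.38). These intervals are wide, and they do not show that the groups were alike. Same-numbered control and BMSC-treated libraries were taken as pairs from these data alone, and the labels state no pairing. In these pairs, Scd1 was lower after BMSCs in 3 of 3 on both scales and Hmgcs1 in 3 of 3 on deposited FPKM. The share of all genes lower in 3 of 3 was not computed, so these counts are a description. With the replicate block Scd1 differed by -0.62 (SE 0.54, limma adjusted p = 1.0). Without control 1 and BMSC-treated 1, BMSC-treated libraries lay wholly below control libraries for 1 of the 8 genes on deposited FPKM, Scd1, against 8.61% of all genes. On rescaled FPKM they did so for 2, Scd1 and Sqle, against 17.5%.

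**Figure D3:**
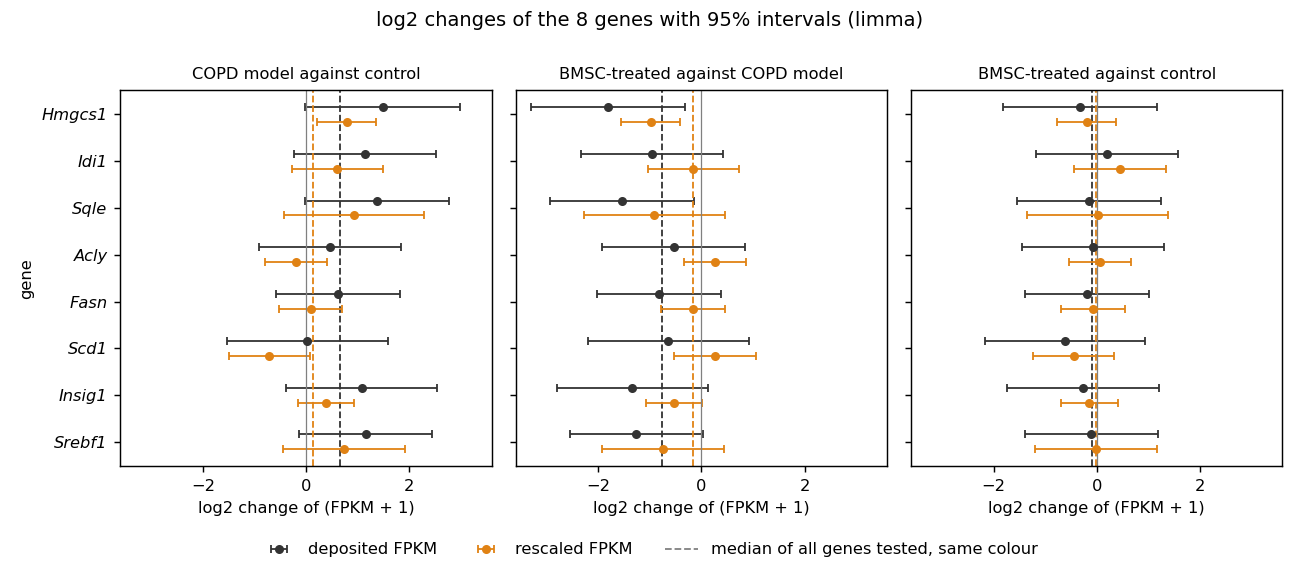
Fitted log2 differences of FPKM + 1 (x axis) of the 8 genes in the 3 comparisons, with 95% limma intervals, on deposited (black) and rescaled (orange) FPKM. Dashed lines mark the median of all genes tested. Hmgcs1 at 0.79 and -0.98 on rescaled FPKM has intervals clear of 0 in the first 2 panels without passing the adjusted test, and Scd1 lies left of the median gene in the first panel on both scales.

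Ratios of 2 genes within a library do not depend on how that library was scaled. Hmgcs1 over Scd1, over Acly and over Insig1 did not overlap between COPD model and control lung. Hmgcs1 over Idi1, over Sqle, over Fasn and over Srebf1 did overlap between these groups. Hmgcs1 over Scd1 was 0.319, 0.217 and 0.435 in control, 1.18, 1.08 and 0.620 in COPD model and 0.260, 0.434 and 0.445 in BMSC-treated lung. Hmgcs1 over Insig1 was 1.02, 1.26 and 1.14 in control, 1.54, 1.60 and 1.42 in COPD model and 1.11, 1.14 and 1.04 in BMSC-treated lung. Hmgcs1 over Acly was 1.16, 1.82 and 1.99 in control, 5.11, 3.11 and 2.44 in COPD model and 0.887, 1.69 and 1.54 in BMSC-treated lung. For Hmgcs1 over Scd1, Insig1 and Acly, COPD model libraries were above both other groups without overlap, including control 1 and BMSC-treated 1. The share of all pairs of genes that lay above both other groups was not computed.

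Of the 28 pairs of the 8 genes, 6 had ratios that did not overlap between COPD model and control lung, where 12.9% of all pairs of the 10610 genes tested and above 0 in all libraries did. They were Hmgcs1 over Scd1, Acly and Insig1, Idi1 over Scd1, Fasn over Scd1, and Scd1 over Insig1, the last lower in COPD model lung. Scd1 was in 4 of the 6 and Hmgcs1 in 3. Scd1 over Fasn was 13.4, 14.6 and 12.1 in control, 7.95, 6.21 and 8.16 in COPD model and 9.86, 12.7 and 8.62 in BMSC-treated lung. Between BMSC-treated and COPD model lung 9 of 28 pairs did not overlap, against 20.6% of all pairs, and between BMSC-treated and control lung 2 did, against 6.66%.

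**Figure D4:**
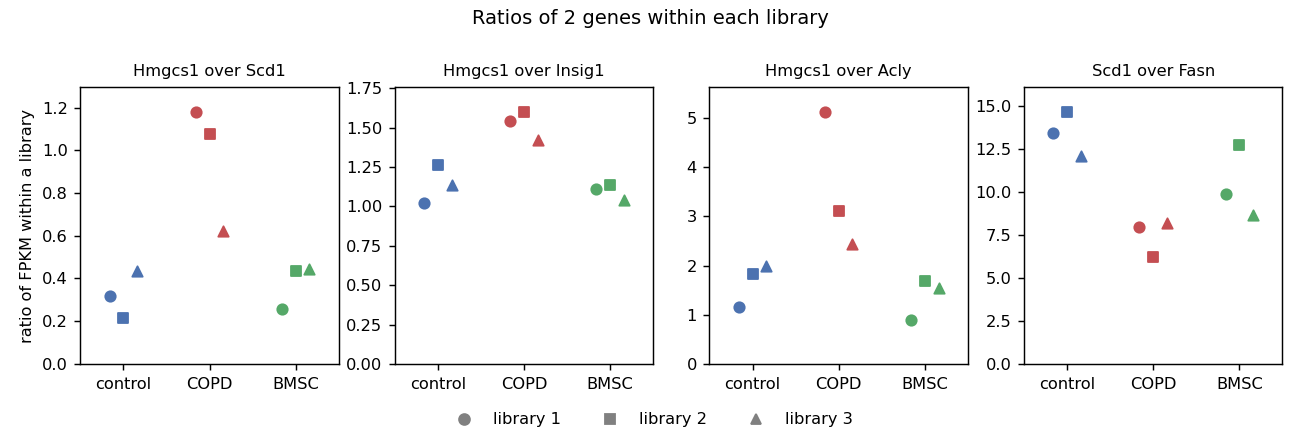
Ratios of the FPKM of 2 genes within each library (y axis, no unit, from 0) by group, with library numbers as marker shapes. Hmgcs1 over Scd1, over Insig1 and over Acly are higher in all 3 COPD model libraries than in all others, and Scd1 over Fasn is lower in COPD model (6.21 to 8.16) than in control (12.1 to 14.6) libraries.

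The sterol synthesis list, which includes Hmgcs1, Idi1 and Sqle, had a median above that of all genes in the COPD model, and none of its genes passed. Of 20 sterol synthesis genes listed, 18 were tested, and 0 were called in any comparison. In COPD model against control lung 3 of the 18 had an unadjusted p under 0.05, all higher and none of them among the 8 genes, against 6.36% of all genes. The median of the 18 was 0.99 log2 against 0.66 for all genes. Without control 1 and BMSC-treated 1 it was 0.44 against 0.30, and 0.20 against 0.049 when also rescaled. With all libraries kept, the median on rescaled FPKM was 0.38 against 0.14, with 14 of 18 above 0 where 64.7% of all genes were. COPD model libraries then lay wholly above control for 4 of the 18, Hmgcs1 and Sqle among them, against 7.09% of all genes, and wholly below for 1, against 3.90%. That 1 was Mvd, at 1.34 to 1.62 against 1.66 to 2.22 rescaled FPKM. Cyp51, the lanosterol demethylase, was at 0.592, 4.42 and 5.92 FPKM in control, 12.8, 10.3 and 9.65 in COPD model and 0.530, 3.76 and 5.36 in BMSC-treated lung. COPD model values were above all others, by 1.60 log2 against control (SE 0.67, limma adjusted p = 0.514) and 1.08 (SE 0.39) on rescaled FPKM.

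In BMSC-treated against COPD model lung, 7 of the 18 sterol genes had an unadjusted p under 0.05, all lower and Hmgcs1 and Sqle among them, against 10.8% of all genes. On rescaled FPKM 5 of 18 did, Hmgcs1 among them, against 4.49%. The median of the 18 was -1.04 log2 against -0.75 for all genes, and -0.52 against -0.16 on rescaled FPKM. Without control 1 and BMSC-treated 1 it was -0.59 against -0.31, and -0.31 against -0.052 when also rescaled. Cyp51 differed by -1.72 (SE 0.67, limma adjusted p = 0.375). Mvd and Mvk, enzymes of the mevalonate pathway, had the smallest p of the list in BMSC-treated against control lung, at -0.54 (SE 0.46) and -0.55 (SE 0.57), and both overlapped. With all libraries kept, these groups were separate for 0 of the 18 on either scale. Without control 1 and BMSC-treated 1, on rescaled FPKM, 7 of the 18 were wholly below control, against 17.5% of all genes. Wholly above was 1, and the share of all genes above was not computed. The median of the 18 there was -0.14 log2 against -0.0003 for all genes. These lists were chosen with earlier results of the data known, so their counts are a description.

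The median difference of the fatty acid list was near that of all genes, while single genes lay further above or below it. Of 15 listed, 13 were tested and 0 called, with a median of 0.71 log2 against 0.66 for all genes in COPD model against control lung, and 0.11 against 0.14 on rescaled FPKM. Me1, the malic enzyme that supplies NADPH, had the smallest p there with 1.21 (SE 0.77, limma adjusted p = 0.514), followed by Scd2 with 1.15 (SE 0.76). Scd2 was at 4.96, 12.2 and 22.2 FPKM in control, 16.7, 19.8 and 52.8 in COPD model and 2.75, 14.4 and 18.7 in BMSC-treated lung, with COPD model 3 far above the rest. Acaca, the acetyl-CoA carboxylase that commits carbon to fatty acids, ranged from 0.102 to 1.26 FPKM and the elongase Elovl6 from 0.298 to 1.73, too low for a fold to be read on this scale. Acss2, the acetyl-CoA synthetase, differed by -1.01 (SE 0.55) in BMSC-treated against COPD model lung. The desaturase Fads2 differed by 0.86 (SE 0.58) in BMSC-treated against control lung.

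Among the SREBP control genes 9 of 10 were tested and 0 called, with a median of 1.03 log2 in COPD model against control lung and 0.41 on rescaled FPKM. Srebf2 was at 0.823, 6.19 and 8.84 FPKM in control, 10.5, 13.8 and 15.6 in COPD model and 0.652, 6.36 and 11.7 in BMSC-treated lung. COPD model values of Srebf2 were above control values but not above all BMSC-treated ones, and the difference from control was 1.49 (SE 0.71, limma adjusted p = 0.514). The protease gene Mbtps1 followed with 1.09 (SE 0.63), and Insig2, the second INSIG gene, differed by -1.43 (SE 0.68) in BMSC-treated against COPD model lung.

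None of the genes tested in the other lists was called. Sterol uptake and transport had 6 of 7 genes in the table, with a rescaled median of 0.24 log2 in COPD model against control lung, and its smallest p was for Vldlr at 0.87 (SE 0.42) on deposited FPKM. The 6 genes of sterol efflux and LXR targets had a rescaled median of 0.13, and the cholesterol exporter Abca1 and the apolipoprotein Apoe led with 0.96 (SE 0.55) and 1.02 (SE 0.77). The 9 genes of glycerolipid synthesis had a rescaled median of -0.07. Of these Gpam, the first acyltransferase of the pathway, was highest at 1.44 (SE 0.58, unadjusted p = 0.0147), and Lpin2 was at 1.16 (SE 0.53) with 15.0 FPKM in COPD model 3 against 0.391 to 2.58 elsewhere. The plot of the 6 lists shows that sterol synthesis, SREBP control and sterol uptake have medians right of the median gene in the first comparison.

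**Figure D5:**
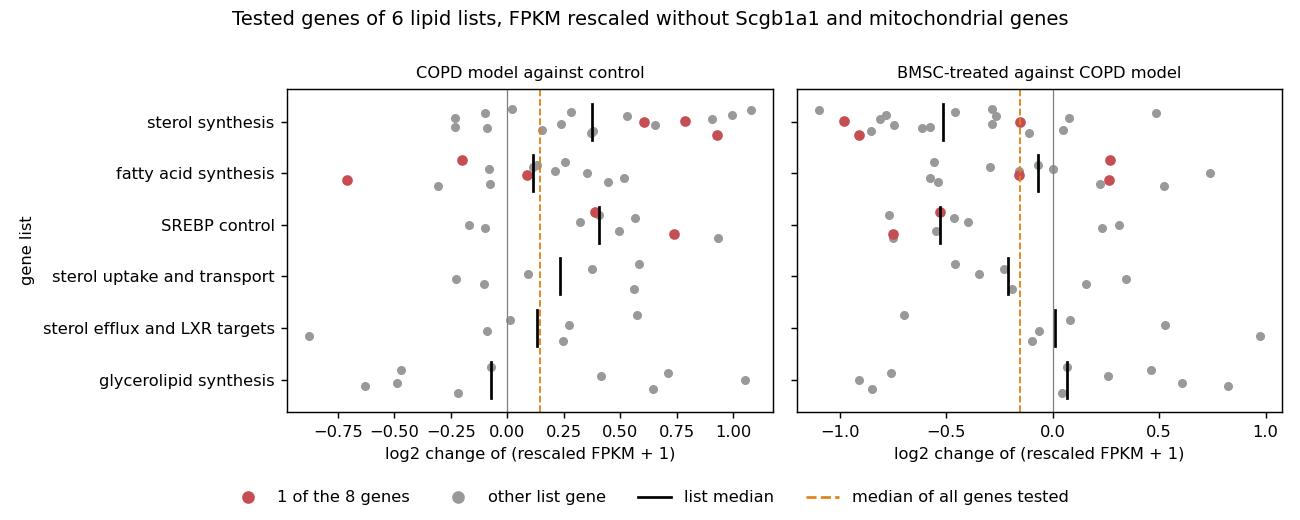
Fitted log2 differences of rescaled FPKM + 1 (x axis) for each tested gene of 6 lipid gene lists (y axis), in COPD model against control (left) and BMSC-treated against COPD model lung (right). Red points are the 8 genes, grey points other list genes, black bars list medians and the dashed line the median of all genes tested. The sterol synthesis median is 0.38 on the left and -0.52 on the right, against 0.14 and -0.16 for all genes, while the fatty acid median is 0.11 and -0.07.

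Some cell type markers also differed with the groups. In bulk tissue, fewer cells of a type and less RNA per cell cannot be told apart. The summed FPKM of 6 club cell markers, mostly from Scgb1a1, was 164700 to 259900 in COPD model, 7038 to 107100 in control and 9889 to 40660 in BMSC-treated lung, and rescaled sums were 117600 to 198400, 16700 to 89380 and 32130 to 44410. None of the 6 was at 0 in any library, and Scgb1a1 itself passed the limma test, at 2.62 log2 in COPD model against control lung (adjusted p = 3.23e-06) and -3.29 in BMSC-treated against COPD model lung (adjusted p = 4.31e-10). On rescaled FPKM none of the 6 was called in either comparison, and Scgb1a1 differed by 1.85 (adjusted p = 0.754) and -2.34 (adjusted p = 0.622). Without control 1 and BMSC-treated 1, none was called in COPD model against control lung on deposited FPKM (Scgb1a1 adjusted p = 0.262). Scgb1a1 was the 1 club cell marker of 6 wholly above control on both scales. Mean FPKM of Bpifa1 was lower in COPD model lung, at 101 against 279 in control and 541 in BMSC-treated lung, with wide overlap. The part of club cell content in the results for Hmgcs1, Sqle and Insig1 was not tested. Summed rescaled FPKM of 12 alveolar type 2 markers overlapped between groups, at 2969 to 4706 in control, 2828 to 4628 in COPD model and 2664 to 3886 in BMSC-treated lung. BMSC-treated libraries still lay wholly below COPD model libraries for 4 of the 12 on rescaled FPKM, Sftpb, Sftpa1, Sftpd and Abca3, named after their values were seen, against 14.2% of all genes. They lay wholly above for 1, Napsa, against 6.25%. Against control lung, 0 of the 12 were separate on either scale with all libraries kept. Without control 1 and BMSC-treated 1, 5 of the 12 were wholly below control on rescaled FPKM, against 17.5% of all genes. On deposited FPKM 6 were, against 8.61%. Wholly above control were 0 and 1 on these scales. Sftpd, a surfactant protein, was at 97.2 to 136 in BMSC-treated and 207 to 217 in COPD model lung, and the part of these markers in the lower Hmgcs1, Sqle and Insig1 was not tested.

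The 6 ciliated cell markers summed to 153.7 in control 1 and 253.3 in BMSC-treated 1 on rescaled FPKM, and to 572.6 to 950.8 in the other 7 libraries. Sqle and Srebf1 were lowest in the same 2 libraries, at 0.743 and 1.92 for Sqle and at 0.650 and 1.003 for Srebf1. Hmgcs1, at 10.2 and 8.15, and Insig1, at 10.0 and 7.33, were lowest there too. Idi1, at 1.82 and 7.49, and Fasn, at 2.38 and 3.18, were lowest in control 1 but not low in BMSC-treated 1. Acly, at 8.80 and 9.19, and Scd1, at 32.0 and 31.4, were lowest in neither. The part of ciliated cell content or of library quality in these values was not tested. Adipocytes express Fasn, Scd1 and Acly strongly, and 8 of 10 adipocyte markers were in the table, with rescaled sums of 14.0 to 66.6 in control, 27.1 to 61.2 in COPD model and 19.4 to 112 in BMSC-treated lung. Adipoq, Cidec and Cidea were at 0 in control 1, Cidea and Retn in BMSC-treated 1 and Retn in BMSC-treated 2. In COPD model against control lung on rescaled FPKM, 3 of the 7 adipocyte markers tested were above 0, against 64.7% of all genes. Without control 1 and BMSC-treated 1 it was 0 of 7, against 58.0%, with a median of -0.57 log2 against 0.049 for all genes. The part of adipocyte content in the results was not tested. Rescaled sums of 6 lipofibroblast markers were 30.2 to 40.8 in control, 29.8 to 39.1 in COPD model and 40.9 to 51.5 in BMSC-treated lung, the last above both others, with Pparg at 0 in control 1. Their part in the results was not tested. For alveolar macrophages 9 of 10 markers were in the table, with Marco and Fabp1 at 0 in control 1. Rescaled sums were 57.9 to 94.9 in control, 49.8 to 86.6 in COPD model and 66.6 to 117 in BMSC-treated lung. On rescaled FPKM the median of the 8 tested was 0.51 log2 in BMSC-treated against COPD model lung, with -0.16 for all genes. It was 0.59 in BMSC-treated against control lung, with -0.0091 for all genes. None was called, and their part in the results was not tested.

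Across the 9 libraries, on log2(rescaled FPKM + 1), Sqle and Srebf1 had a Pearson r of 0.98 and Hmgcs1 and Insig1 one of 0.94. Over the 7 libraries without control 1 and BMSC-treated 1 these were 0.82 and 0.89. Hmgcs1 and Scd1 had an r of -0.21 and Hmgcs1 and Acly one of -0.39. The libraries share groups and composition, so these values describe the data and carry no test. By the same measure, the genes most like the mean of the 8 were Ang with 0.99, Man1c1 with 0.98, Fam193a with 0.97, Canx with 0.97 and Atp8b1 with 0.96. For single genes they included Med4 for Idi1 (0.98), Usp1 for Acly (0.97), Tapbpl for Fasn (0.95), Nck1 for Scd1 (0.84), P2rx5 for Insig1 (0.97) and Cfap57, a cilium gene, for Srebf1 (0.998). Scd1 had the weakest best match of these.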

How the data were processed

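Lung mRNA was measured in 9 libraries, 3 in each of 3 groups named by the labels. Per the labels, libraries were made with a stranded kit from 1.5 µg of Trizol-extracted RNA after oligo dT selection. FastQC, cutadapt, StringTie and Bowtie with mm10 are named in the submitters' processing notes. For these tools, the version, the role and any use of strand in counting were not given in the sources used here. Per the file headers, the authors deposited FPKM per gene, scaled to transcript length and library reads. The highest group mean of every listed gene was at least 0.5003 FPKM, so genes low in all groups were absent. FPKM keep no depth, so the depth of the libraries is unknown and no counting interval can be given. No value column was left unassigned (0). tsRNA tables of the same study were not used here.

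Genes at 1 FPKM or more in at least 3 libraries were tested, with log2(FPKM + 1) fitted for all 9 libraries together by limma 3.58.1 (empirical Bayes with trend, two-sided) in R 4.3.3 and Benjamini-Hochberg adjustment over 11765 genes. A call is an adjusted p under 0.05. Rescaled FPKM gave every library the same sum, 148606, with Scgb1a1 and 13 mitochondrial genes left out of it. Alternatives are in the closing section. The labels number libraries 1 to 3 in each group. For control and BMSC-treated libraries of the same number, deviations from the group means had r = 0.63, 0.19 and 0.50, so those numbers were taken as pairs, from the data alone. Control 2 deviated more with BMSC-treated 3 (r = 0.31) than with its own number, and control 3 with BMSC-treated 2 had r = 0.19. With the COPD model, r was -0.02, 0.18 and -0.17 for control and 0.05, -0.06 and -0.10 for BMSC-treated libraries, and these were not taken as pairs.

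The name table held the IDs of 7 of the 8 genes, and Scd1 was matched by its symbol in the file. Besides the 8 genes, the 2 genes of smallest p per list and comparison could be named, with Srebf2, Acaca, Elovl6 and Scd2 for their role, and the genes most like the members by Pearson r. Some genes that this rule would name are not reported here. The members, 67 pathway genes in 6 lists and 6 marker lists were chosen with earlier results of these data known. Tables and plots used Python 3.11.15, pandas 2.3.3, numpy 2.4.6 and matplotlib 3.10.9.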

Additional observations from a re-analysis of the deposited data

How the results depend on the processing

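None of the 8 genes passed under any other setting, which were 20 per gene in the first 2 comparisons (19 for Fasn) and 21 in BMSC-treated against control lung (20 for Fasn). The lowest adjusted p was 0.126 in COPD model against control, 0.0706 in BMSC-treated against COPD model and 0.847 in BMSC-treated against control lung. Hmgcs1, Idi1, Sqle, Insig1 and Srebf1 kept their direction in the first 2 comparisons in every setting tried. Fasn could not be tested at 5 FPKM in 3 libraries. The cause of the shifts below was not tested.

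The genes called in COPD model against control and in BMSC-treated against COPD model lung numbered 9 and 15. They numbered 0 and 0 after rescaling, by the median ratio, with a pseudocount of 0.1 or without the trend, 1 and 6 without a filter, and 1 and 1 at 5 FPKM. With only the 2 groups compared the first was 2. Without control 1 and BMSC-treated 1 the first was 3 and BMSC-treated against control gave 6 (0 before). Rescaled without them, a setting chosen after seeing the data, the 3 comparisons gave 0, 4 and 3. With each library left out in turn they were 1 to 47, 0 to 35 and 0 to 2. With the replicate block the first 2 comparisons gave 17 and 34 calls, with the block and only the 2 groups compared 0 and 95, and BMSC-treated against control 0 in each.

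In COPD model against control lung, Acly was -0.20 rescaled, -0.31 by median ratio and -0.15 (rescaled) without control 1 and BMSC-treated 1. Fasn was -0.011 by median ratio and -0.063 rescaled without them. Scd1 was -0.71 rescaled, -0.83 by median ratio, and without them -0.59 and, rescaled, -0.90. In BMSC-treated against COPD model lung, Acly was 0.27 rescaled, 0.39 by median ratio and 0.22 rescaled without them, and Scd1 0.26, 0.40 and 0.25. In BMSC-treated against control lung, Idi1 was -0.14 without them and -0.12 rescaled without them. Sqle was 0.020 rescaled, 0.030 by median ratio and 0.020 rescaled with the replicate block. Acly was 0.068, 0.082 and 0.068 in these, and 0.054 and 0.073 without the pair of libraries.

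Leaving out 1 library at a time, Scd1 ranged from -0.59 to 0.48 in COPD model against control lung. In BMSC-treated against control lung, Hmgcs1 ranged from -0.88 to 0.39, Idi1 from -0.57 to 0.66, Sqle from -1.10 to 0.59, Acly from -0.40 to 0.38, Fasn from -0.62 to 0.16, Insig1 from -0.74 to 0.44 and Srebf1 from -0.85 to 0.57. Of these leave-one-out values in COPD model against control lung, each of the 8 genes had its lowest without control 1, with Sqle at 0.44, Idi1 at 0.38, Srebf1 at 0.42 and Acly at 0.14.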
